A study of Mus musculus with 6 samples.

Results

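G-protein-coupled receptors and an adhesion ligand that steer lymphocytes into the thymus or into B-cell follicles were examined: 7 genes of the 24318 symbols in the deposited tables. The thymus-homing genes are Ccr9, Ccr7, Cxcr4 and Selplg, and the follicle-homing genes are Cxcr5, Ccr6 and Gpr183. All 7 are the members matched by gene symbol in each of the 6 tables, and each had 1 locus of its own in every library. They were picked with the difference between the groups already known, so their differences are given as descriptions. Calls on them in the fit across all genes are counted below, but nothing is read from those calls.

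Chemokine receptors signal through inhibitory G proteins and turn cells toward a source of their ligand. Bone-marrow progenitors enter the thymus with the help of P-selectin binding to PSGL-1 (the product of Selplg) and of CCR9 and CCR7, which read CCL25 and the pair CCL19 and CCL21, while CXCR4 reads CXCL12 and holds early thymocytes in the cortex. In lymphoid organs, CXCR5 reads CXCL13 and draws B cells into follicles, CCR6 reads CCL20, and GPR183 (EBI2) reads oxysterols at the follicle edge.

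RNA was sequenced from sorted mouse thymocytes at the DN1 stage, in 3 libraries labelled Tle134-deficient and 3 labelled WT, from mice of 5 to 8 weeks in both groups. Sorted cells were CD44 positive and lacked CD25, CD8a, TCRb and lineage markers. The sources used here do not give the lineage antibodies, the means or cell type of the deletion, or whether each library came from its own animal, so the p-values may measure technical spread only. The label Tle134 was taken to mean the genes Tle1, Tle3 and Tle4, which encode Groucho-type corepressors that bind Tcf/Lef and Runx factors.

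Levels are FPKM (fragments scaled to transcript length and library size), so they can be compared between genes. The deposited intervals imply 1.42e+06 to 4.34e+06 fragments in named loci per library, fewest in replicate 1 of each group. Tle1 averaged 11.3 ± 0.185 FPKM under the deficient label and 2.06 ± 1.35 FPKM in WT (SD, n = 3 each; limma adjusted p = 0.0954). Tle3 averaged 72.9 ± 12.6 FPKM against 28.5 ± 6.56 FPKM in WT, and Tle4 26.9 ± 8.73 FPKM against 17.1 ± 2.25 FPKM. These whole-locus values go against the label and may include reads outside a deleted part, so the group is called the libraries labelled Tle134-deficient (the labelled-deficient libraries) and every direction below rests on that label. Cd44 was present throughout, at 32.5 to 74.3 FPKM under the deficient label and 27.5 to 53.4 FPKM in WT. Of 12 B-cell markers, 9 rose in the labelled-deficient libraries (limma, adjusted p under the 0.05 threshold over all 11063 genes tested), against 0.642% of all genes tested. Ebf1 (0.683, 2.02 and 0.848 FPKM in WT) and Fcer2a (1.78, 0.680 and 3.45 FPKM in WT), both among the 9, did not reach 1 FPKM in every WT library. Their entry into the test leaned on the labelled-deficient libraries. The summed level of the 12 was 1280, 1040 and 729 FPKM against 120, 149 and 185 FPKM in WT. In WT 10, 11 and 10 of the 12 reached 1 FPKM, with Cr2 listed at 0 in replicates 1 and 3, against all 12 in each library labelled deficient. None of these calls, nor any other in the fit, was kept without WT replicate 1 or without replicate 1 or 2 of the libraries labelled deficient (limma, 0 genes past the threshold, with 800, 899 and 911 at an unadjusted p under 0.05). In such bulk RNA, more cells of a type and more RNA per cell cannot be told apart.

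The 7 genes did not differ as 2 blocks. Ccr9 was lower in the labelled-deficient libraries than in WT, Selplg overlapped, and Ccr7, Cxcr4 and all 3 follicle-homing genes were higher. In 6 of the 7 genes the values of the groups did not overlap, 5 of them higher and 1 lower in the labelled-deficient libraries. Non-overlap was seen in 15.2% of all genes tested (8.67% higher and 6.56% lower). In the limma fit across all genes 2 of the 7, Cxcr4 and Cxcr5, were past the threshold, both higher, against 0.750% of all genes in either direction and 0.642% higher. The deposited intervals of the groups lay apart in 4 of the 7, against 5.02% of all genes. The log2 difference was above 0 in 5 of the 7 and below 0 in 2, against 52.7% and 47.3% of all genes. Because the genes were chosen on this contrast, nothing is read from these counts.

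**Figure D1:**
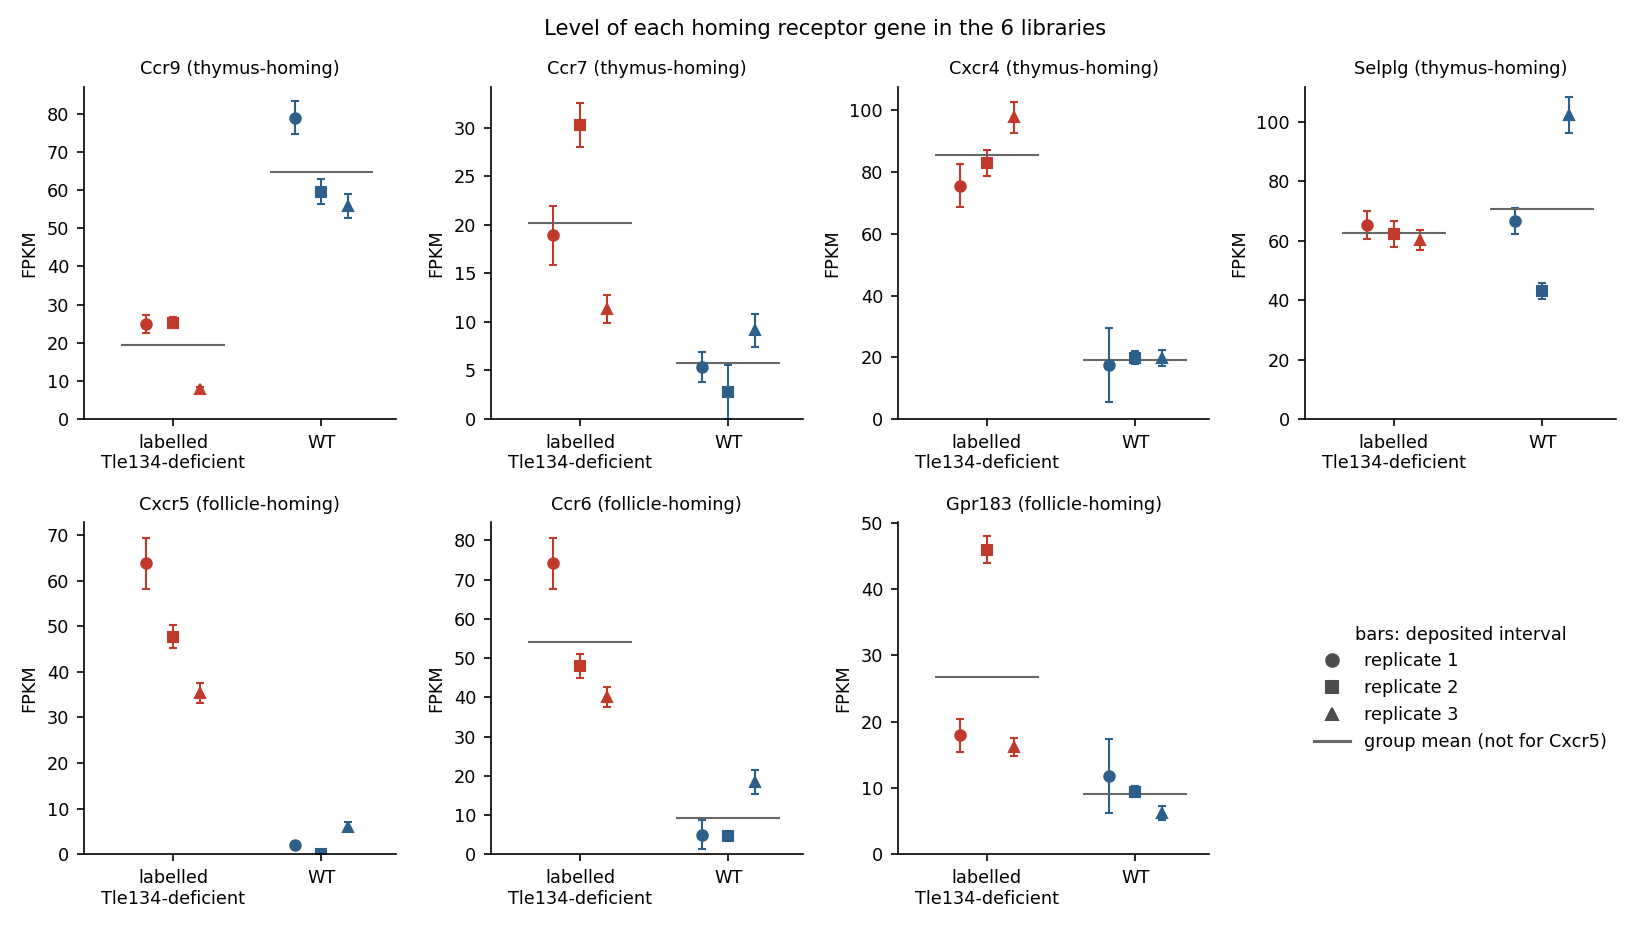
FPKM of each gene (vertical axis, linear from 0) in the 3 libraries labelled Tle134-deficient and the 3 WT libraries. Points are libraries, bars the deposited interval of each value and lines the group means (none for Cxcr5). Ccr9 sits at 7.73 to 25.3 FPKM under the deficient label, below 55.9 to 79.1 FPKM in WT, while Cxcr5 sits at 35.4 to 63.8 FPKM, above 0 to 6.04 FPKM in WT.

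Ccr9 (mm9 chromosome 9, 123676329 to 123692575) was the one gene of the 7 whose values were lower without overlap. It stood at 24.9, 25.3 and 7.73 FPKM in libraries labelled deficient 1 to 3, against 79.1, 59.6 and 55.9 FPKM in WT 1 to 3. The lowest WT value was 2.21 times the highest of the libraries labelled deficient. Means were 19.3 ± 10.0 FPKM under the deficient label and 64.9 ± 12.4 FPKM in WT (SD, n = 3 each), a log2(FPKM + 1) difference of -1.85 ± 0.51 (SE). Replicate 3 of the libraries labelled deficient was the lowest, and it was also the library with the lowest sum of 12 T-progenitor markers (751, 351 and 279 FPKM under the deficient label against 849, 512 and 1120 FPKM in WT) and the highest sum of 10 myeloid markers (297, 225 and 1570 FPKM against 152, 312 and 691 FPKM). Set against the T-progenitor sum of its own library, Ccr9 came to 3.31%, 7.20% and 2.77% in the labelled-deficient libraries and 9.32%, 11.6% and 5.00% in WT. These shares overlap between the groups. None of the 11 T-progenitor markers tested and none of the 9 myeloid markers tested passed the threshold (limma, 2 of each at an unadjusted p under 0.05). The log2 difference was below 0 in 10 of the 11 T-progenitor markers, with a median of -0.93, and in 3 of the 9 myeloid markers, with a median of 0.29, beside 0.04 over all genes. Nor did any of 8 early progenitor markers (limma, 2 at an unadjusted p under 0.05). Tcf7, a transcription factor of early T cells, was at 239, 121 and 39.5 FPKM against 229, 164 and 213 FPKM in WT. The part of those cells in the Ccr9 level was not tested.

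Cxcr4 (chromosome 1, 130484776 to 130488876) had the steadiest difference of the 7. It was at 75.7, 82.9 and 97.8 FPKM under the deficient label and at 17.5, 19.8 and 19.8 FPKM in WT. The groups were far apart and narrow: the highest value was 1.29 times the lowest in the labelled-deficient libraries and 1.14 times in WT. The means of 85.5 ± 11.3 FPKM under the deficient label and 19.0 ± 1.37 FPKM in WT (SD, n = 3 each) gave a ratio of 4.49 and a log2 difference of 2.1 ± 0.38 (SE). WT replicate 1 was measured loosely, with a deposited interval of 5.47 to 29.4 FPKM, whose upper end is still below every interval in the labelled-deficient libraries.

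A second CXCL12 receptor that was not among the 7 moved in the same direction. Ackr3, an atypical receptor that takes up CXCL12 without G-protein signalling, was at 6.27, 9.0 and 10.8 FPKM under the deficient label and at 0, 0.151 and 0.135 FPKM in WT. The groups did not overlap, and WT was near or at 0 throughout. Ackr3 rose by 3.12 ± 0.46 on the log2(FPKM + 1) scale (SE; limma adjusted p = 0.0279), higher in 3 of 3 libraries. Its adjusted p ranged from 0.0274 to 0.115 over 11 alternatives, and the call was lost in 5 of them, namely without WT replicate 1 (0.115), without WT replicate 2 (0.0734), with no filter (0.0806), with a filter of 5 FPKM (0.106) and with a replicate block (0.0764). Ackr3 met the filter of 1 FPKM in 3 libraries only through the libraries labelled deficient, and without any one of them it no longer did. The difference thus decided its entry into the test, and nothing is read from the call.

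Ccr7 (chromosome 11, 99005513 to 99016391 in 4 of the 6 tables) was the lowest of the thymus-homing genes in WT. Its levels were 18.9, 30.3 and 11.3 FPKM under the deficient label and 5.35, 2.75 and 9.11 FPKM in WT. The groups came close, since the lowest value labelled deficient was 1.25 times the highest WT value, and the deposited intervals of those 2 libraries overlapped (9.92 to 12.8 and 7.44 to 10.8 FPKM). The means were 20.2 ± 9.53 FPKM under the deficient label and 5.73 ± 3.20 FPKM in WT (SD, n = 3 each) and the log2 difference was 1.67 ± 0.52 (SE). Mature dendritic cells and lymphocytes also use CCR7. Of 7 dendritic cell markers tested none passed the threshold (limma, 2 at an unadjusted p under 0.05), and the summed level of the list of 10 was 111, 148 and 123 FPKM against 25.5, 15.3 and 32.5 FPKM in WT. The log2 difference was above 0 in 6 of the 7 and below 0 in 1, with a median of 0.70, and 2 did not overlap. Cd83, an activation gene that B cells share, was at 93.1, 123 and 56.8 FPKM against 0.622, 3.72 and 21.4 FPKM (limma adjusted p = 0.0677). It made up much of the sums under the deficient label. Zbtb46 was at 1.47, 6.63 and 52.4 FPKM against 12.6, 2.69 and 5.81 FPKM (limma adjusted p = 0.952), and was much of the rest in labelled-deficient replicate 3. Sums without these genes were not computed. Xcr1 and Clec9a, which define cross-presenting dendritic cells, were under the filter and not tested. Clec9a was at 0.373, 2.53 and 0.518 FPKM against 0, 0.116 and 0 FPKM, and Xcr1 at 0.0480, 0.0657 and 0.167 FPKM against 0, 0.0299 and 0 FPKM. The part of dendritic cells in the Ccr7 level was not tested.

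Selplg (chromosome 5, 114267807 to 114280510 in 5 of the 6 tables) was the one gene of the 7 whose groups overlapped. It was at 65.3, 62.2 and 60.4 FPKM under the deficient label and at 66.6, 43.1 and 102 FPKM in WT. All 3 libraries labelled deficient fell inside the WT range. The log2 difference was -0.09 ± 0.46 (SE), and it was 0.22 without WT replicate 3. PSGL-1 binds P-selectin only when it carries the right sugars and sulfated tyrosines. Of the 11 genes tested for making or accompanying such ligands, none passed (limma, 4 at an unadjusted p under 0.05), with a median log2 difference of 0.68 beside 0.04 over all genes. Gcnt1, the core-branching enzyme, was at 6.07, 3.38 and 9.44 FPKM against 1.70, 1.75 and 2.94 FPKM in WT (limma adjusted p = 0.486), and Fut7, the fucosyltransferase, was at 4.36, 2.43 and 10.7 FPKM against 2.87, 3.88 and 3.77 FPKM (adjusted p = 0.902).

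The follicle-homing genes were all higher in the labelled-deficient libraries, and Cxcr5 stood out. Cxcr5 (chromosome 9, 44319870 to 44334504 in 4 of the 6 tables) was at 63.8, 47.7 and 35.4 FPKM there and at 1.99, 0 and 6.04 FPKM in WT. The lowest of the libraries labelled deficient was 5.86 times the highest WT value. The log2(FPKM + 1) difference was 4.14 ± 0.66 (SE), above that of 99.9% of all genes tested. It depends on how low values are handled: 5.45 with a pseudocount of 0.1 and 2.86 with a pseudocount of 5. The value of 0 in WT replicate 2 comes from a table in which the locus of the neighbour Bcl9l reaches past the start of the Cxcr5 locus, ending at 44319972, and in which Bcl9l has its highest level of the 6, 36.0 FPKM. Without that library the log2 difference was 3.40.

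Ccr6 (chromosome 17, from 8428908 to between 8450013 and 8451340 in 5 of the 6 tables) followed the order of Cxcr5 within the labelled-deficient libraries. It was at 74.2, 48.0 and 40.1 FPKM in those libraries and at 5.03, 4.57 and 18.5 FPKM in WT. WT replicate 3 was the highest WT library for Ccr6 and for Cxcr5 alike, and for Ccr6 the lowest library labelled deficient was 2.17 times as high. The means were 54.1 ± 17.9 FPKM under the deficient label and 9.36 ± 7.89 FPKM in WT (SD, n = 3 each), with a log2 difference of 2.62 ± 0.54 (SE). CCR6 is also a receptor of innate lymphoid and IL-17-producing T cells. None of 9 markers of group 3 innate lymphoid and lymphoid-tissue inducer cells passed the threshold (limma, 4 at an unadjusted p under 0.05). Their sum was 189, 146 and 90.2 FPKM against 94.8, 114 and 124 FPKM in WT. The part of innate lymphoid cells in the Ccr6 level was not tested.

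Gpr183 (chromosome 14, 122351553 to 122364415 in 2 of the 6 tables) had the smallest difference of the 3. It was at 17.9, 45.9 and 16.2 FPKM under the deficient label and at 11.8, 9.44 and 6.28 FPKM in WT. The groups did not overlap, yet replicate 2 of the libraries labelled deficient stood 2.84 times above replicate 3, and the deposited interval of WT replicate 1 (6.18 to 17.3 FPKM) overlapped those of both other libraries labelled deficient. The means were 26.7 ± 16.7 FPKM under the deficient label and 9.16 ± 2.75 FPKM in WT (SD, n = 3 each), and the log2 difference was 1.33 ± 0.49 (SE), or 0.87 without replicate 2 of the libraries labelled deficient. Gpr183 lies inside the span of Ubac2 in all 6 tables, and the sources used here do not give the use of strand, so its level is uncertain. Ubac2 was at 18.3, 24.7 and 11.1 FPKM against 18.8, 14.9 and 32.2 FPKM in WT.

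**Figure D2:**
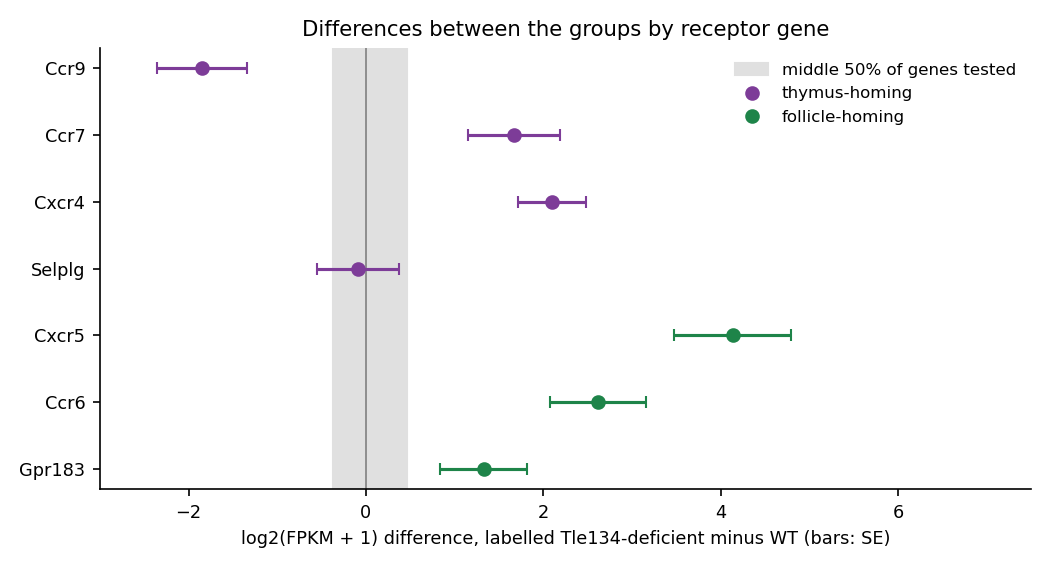
Difference in log2(FPKM + 1), libraries labelled Tle134-deficient minus WT, for each gene (points, with the SE as bars). The grey band runs from the lower to the upper quartile of the 11063 genes tested. Of the thymus-homing genes, Ccr9 lies left of the band at -1.85, Selplg lies inside it at -0.09, and Ccr7 and Cxcr4 lie right of it at 1.67 and 2.1, as do the 3 follicle-homing genes at 1.33 to 4.14.

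Promoter sequence was read from the RefSeq table (GRCm38.p6), which matched 4 of the 7 genes, with 2 start sites for Ccr6. Tle proteins bind Tcf/Lef and Runx factors, and the 250 bases before each start were searched on both strands for CTTTGA or CTTTGT (Tcf/Lef core) and for TGTGGT (Runx core). A Tcf/Lef match is present in 27.6% and a Runx match in 14.0% of the 32851 windows in the table. Shown are the windows of 2 follicle-homing genes that were higher and of Ccr9, which was lower, 5′ to 3′ on the gene's strand, with Tcf/Lef matches in capitals.
Ccr6, first start, chr17:8235793-8236042, plus strand: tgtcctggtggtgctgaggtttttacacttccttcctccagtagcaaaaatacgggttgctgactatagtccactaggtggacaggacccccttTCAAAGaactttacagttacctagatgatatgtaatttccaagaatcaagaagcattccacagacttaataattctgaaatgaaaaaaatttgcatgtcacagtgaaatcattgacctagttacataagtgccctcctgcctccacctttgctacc
Ccr6, second start, chr17:8242276-8242525, plus strand: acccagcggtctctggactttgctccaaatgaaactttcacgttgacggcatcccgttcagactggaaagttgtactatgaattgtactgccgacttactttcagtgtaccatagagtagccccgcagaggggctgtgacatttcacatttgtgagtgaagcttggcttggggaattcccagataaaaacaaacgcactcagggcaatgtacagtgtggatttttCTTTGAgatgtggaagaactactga
Gpr183, chr14:121965194-121965443, minus strand: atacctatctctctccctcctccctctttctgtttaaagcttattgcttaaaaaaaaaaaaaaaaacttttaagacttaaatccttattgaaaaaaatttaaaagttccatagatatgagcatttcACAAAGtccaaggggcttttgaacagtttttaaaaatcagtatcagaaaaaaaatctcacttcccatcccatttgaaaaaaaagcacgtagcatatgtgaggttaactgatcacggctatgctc
Ccr9, chr9:123766961-123767210, plus strand: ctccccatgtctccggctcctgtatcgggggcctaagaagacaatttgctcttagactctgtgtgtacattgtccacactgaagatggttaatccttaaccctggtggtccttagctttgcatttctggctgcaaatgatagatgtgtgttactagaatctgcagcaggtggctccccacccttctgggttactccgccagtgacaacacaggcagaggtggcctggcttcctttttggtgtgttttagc

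Both Ccr6 windows and the Gpr183 window held 1 Tcf/Lef match each, starting 156, 25 and 124 bases before the start site. The Ccr9 and Cxcr4 windows held none. No window of the 4 genes held the Runx letters. A match is a run of letters, not a bound site.

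Averaged per library, the follicle-homing genes drew level with the thymus-homing genes in the labelled-deficient libraries and lay far below them in WT. The mean log2(FPKM + 1) of the 3 follicle-homing genes minus that of the 4 thymus-homing genes was 0.17, 0.08 and 0.05 in the labelled-deficient libraries and -2.20, -2.46 and -1.74 in WT. The follicle-homing mean was 5.32 ± 0.39 against 2.63 ± 0.68 in WT (SD, n = 3 each). The thymus-homing mean, 5.22 ± 0.35 against 4.77 ± 0.32, averages genes with differences of opposite sign, and its difference of 0.46 became 1.23 without Ccr9 and -0.09 without Cxcr4.

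The order of the 7 genes within a library differed between the groups. In the libraries labelled deficient Cxcr4 was first in all 3, Ccr6 and Selplg came next and Cxcr5 followed them, and Ccr9 was last in replicates 2 and 3. In WT Ccr9 and Selplg held the first places, Cxcr4 followed them in all 3 and Cxcr5 was last in all 3. The ratio of Ccr6 to Cxcr5 was 1.16, 1.01 and 1.13 in the labelled-deficient libraries, and in replicate 1 Selplg lay between them. In WT the middle places of Gpr183, Ccr7 and Ccr6 changed from library to library.

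Ratios within a library do not depend on how the libraries were scaled. Cxcr4 was 3.05, 3.28 and 12.7 times Ccr9 in the labelled-deficient libraries and 0.221, 0.332 and 0.354 times Ccr9 in WT. Cxcr5 was 2.57, 1.89 and 4.58 times Ccr9 in the labelled-deficient libraries and 0.0252, 0 and 0.108 times Ccr9 in WT. The highest ratios were those of labelled-deficient replicate 3, where Ccr9 was lowest. Ccr9 was lower without overlap, and Cxcr4 and Cxcr5 were higher without overlap. Their ratios to Ccr9 therefore had to separate the groups, and the separation adds nothing to those levels.

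**Figure D3:**
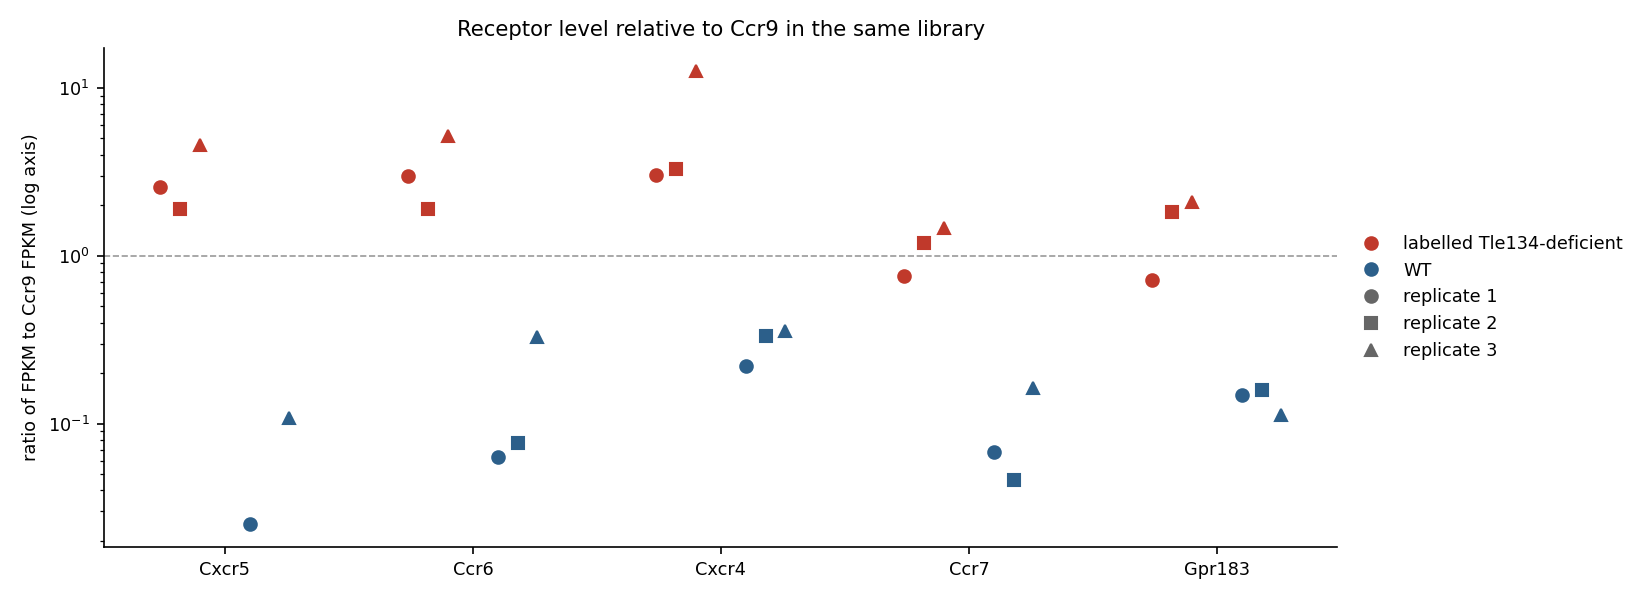
FPKM of 5 receptor genes divided by the FPKM of Ccr9 in the same library (log axis). Red points are libraries labelled Tle134-deficient, blue points WT, shapes the replicates, and the dashed line marks equal levels; Cxcr5 in WT replicate 2 is at 0 and not drawn. All 5 ratios are higher in every library labelled deficient, where Ccr7 and Gpr183 range from 0.721 to 2.09, than in any WT library. This had to follow, since Ccr9 was lower and the 5 genes were higher without overlap.

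Because B-cell markers rose in the same libraries, each receptor was set against the summed FPKM of the 12 B-cell markers of its own library. Cxcr5 came to 5.00%, 4.60% and 4.85% of that sum in the labelled-deficient libraries and to 1.67%, 0% and 3.26% in WT. Ccr6 came to 5.82%, 4.64% and 5.50% against 4.21%, 3.07% and 9.97%, so that its groups overlapped on this scale. Across the libraries labelled deficient the Cxcr5 share stayed between 4.60% and 5.00%, while the sum itself ranged from 729 to 1280 FPKM. Blk and Cd37 made up much of the WT sums of 120, 149 and 185 FPKM. In WT Blk was at 44.3, 38.0 and 29.9 FPKM and Cd37 at 42.6, 70.8 and 44.2 FPKM. Under the deficient label Blk was at 83.6, 118 and 46.0 FPKM and Cd37 at 220, 130 and 77.3 FPKM. Neither passed the threshold (limma adjusted p = 0.512 and 0.397). The Cxcr5 shares in WT rest partly on these genes, and shares without them were not computed.

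Cxcr4 on the same scale was 5.93%, 8.00% and 13.4% against 14.6%, 13.3% and 10.7% in WT, which also overlap. Ccr7 (1.48%, 2.92% and 1.56% against 4.47%, 1.84% and 4.92%) and Gpr183 (1.40%, 4.43% and 2.22% against 9.83%, 6.33% and 3.39%) overlapped as well. For Ccr9 the share was 1.95%, 2.44% and 1.06% against 66.2%, 40.0% and 30.2%. That separation had to follow from its lower level and the higher marker sums in the labelled-deficient libraries. The part of B cells in these levels was not tested.

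**Figure D4:**
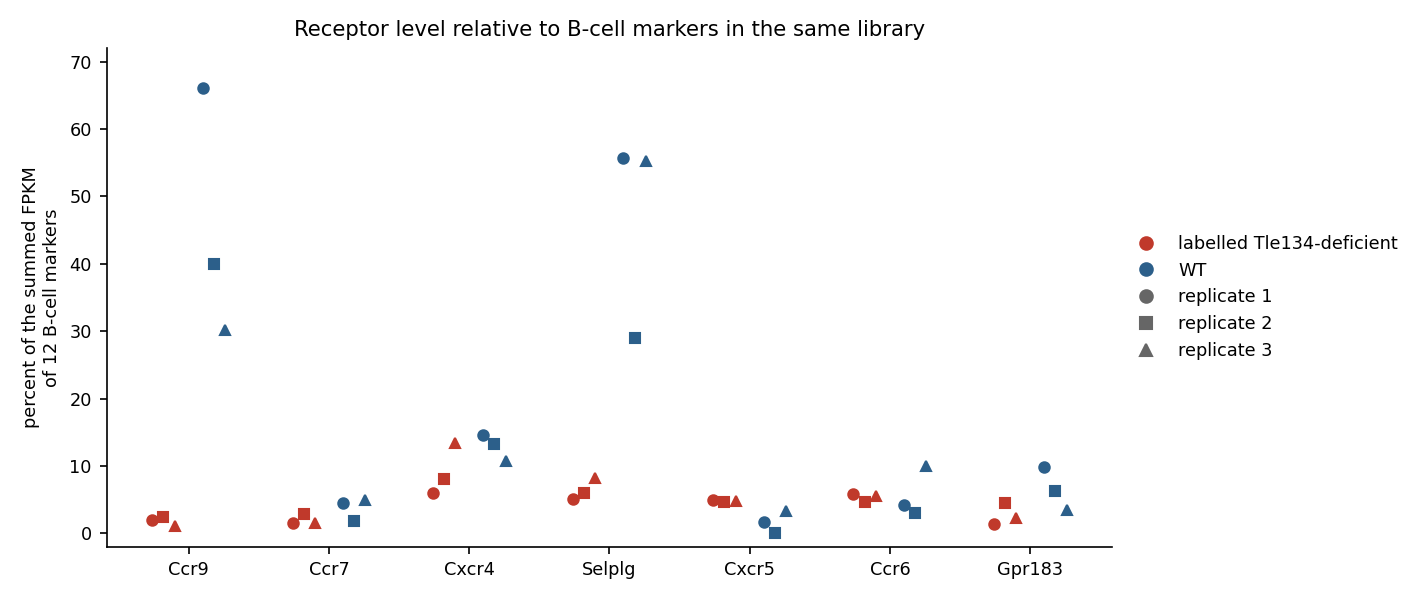
Each receptor gene as a percent of the summed FPKM of 12 B-cell markers in the same library (vertical axis). Red points are libraries labelled Tle134-deficient, blue points WT, and shapes the replicates. Cxcr5 lies at 4.60% to 5.00% in the labelled-deficient libraries and at 0% to 3.26% in WT, while the groups overlap for Ccr6, Cxcr4, Ccr7 and Gpr183. Ccr9 and Selplg are lower without overlap under the deficient label, which for Ccr9 had to follow from its lower level and the higher sums. Blk and Cd37 are much of the WT sums.

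Among the 18 other receptors of the family, 8 were tested, and Ackr3 alone passed the threshold, having met the filter only through the libraries labelled deficient. The median log2 difference of the 8 was 0.30, beside 0.04 over all genes. Ccr8 was at 1.75, 1.94 and 0.0757 FPKM under the deficient label and at 5.07, 2.38 and 7.89 FPKM in WT, without overlap but not past the threshold (limma adjusted p = 0.428). Ccr4, a receptor of thymocytes after selection and of helper T cells, was at 5.15, 2.17 and 1.60 FPKM against 6.71, 4.94 and 6.99 FPKM (adjusted p = 0.596). Cxcr6 was at 22.0, 10.5 and 13.6 FPKM against 10.4, 5.96 and 26.0 FPKM in WT (adjusted p = 0.953). Ackr4, the scavenger of CCL19, CCL21 and CCL25, stayed under the filter at 0 to 0.829 FPKM against 0 to 0.870 FPKM.

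**Figure D5:**
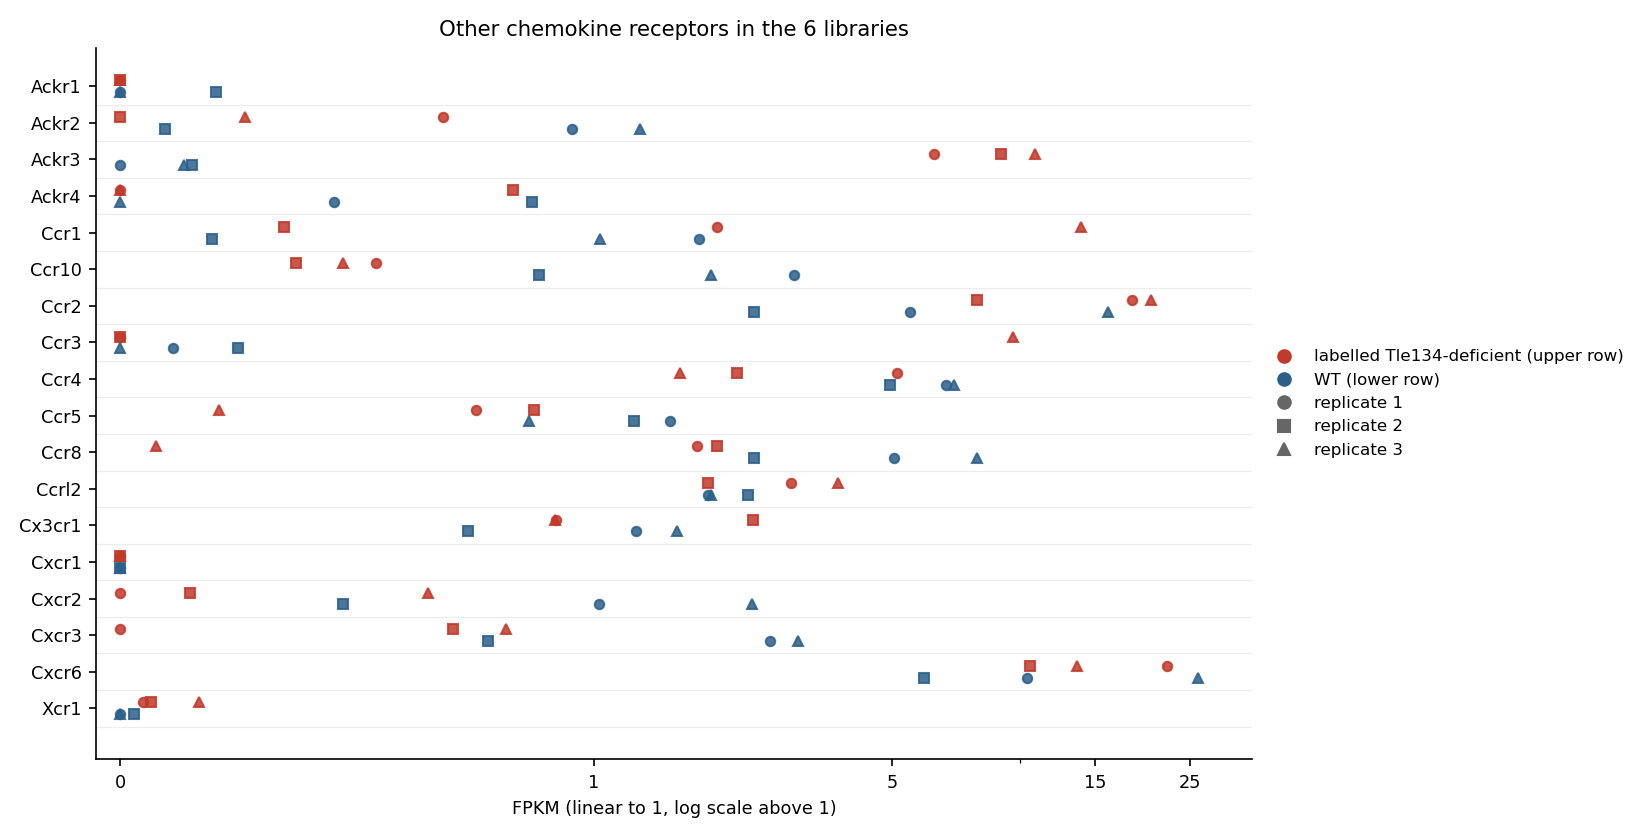
FPKM of 18 other chemokine receptors (horizontal axis, linear to 1 and log above) in the libraries labelled Tle134-deficient (red, upper row of each gene) and WT (blue, lower row), with shapes for replicates. Ackr3 is at 6.27 to 10.8 FPKM under the deficient label and at 0 to 0.151 FPKM in WT; of the others, Ccr2 and Cxcr6 reach 20.2 and 22.0 FPKM under the deficient label and up to 26.0 FPKM (Cxcr6) in WT.

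Of the 11 ligands and oxysterol enzymes 2 reached the filter, and neither passed (limma, 0 at an unadjusted p under 0.05). Ccl19, Ccl20 and the Ccl21a locus, which shares its row with the copy Gm1987, were listed at 0 in all 6 libraries. Cxcl12 was at 0.491, 0.365 and 0.0842 FPKM under the deficient label and at 3.59, 0.475 and 4.72 FPKM in WT, and of 6 stromal markers tested 1, Pdgfrb, fell, with a log2 difference of -2.26 (limma adjusted p = 0.0469). Pdgfrb lost this call in 12 of 15 alternatives, every fit without 1 library among them, with adjusted p from 0.0303 to 0.388. The log2 difference was below 0 in 4 of the 6 stromal markers and above 0 in 2, with a median of -2.04 (limma, 4 at an unadjusted p under 0.05). Pecam1 was higher without overlap, at 39.2, 39.9 and 30.0 FPKM against 21.7, 21.1 and 17.3 FPKM in WT (limma adjusted p = 0.506). Ccl25 was at 2.68, 21.8 and 6.51 FPKM against 2.04, 14.9 and 0 FPKM (limma adjusted p = 0.774), and Cxcl13 at 0, 0.964 and 1.65 against 0, 1.01 and 0 FPKM. Of the enzymes of the GPR183 oxysterol ligand, Ch25h and Cyp7b1 did not reach the filter, and Hsd3b7, which degrades the ligand, was at 1.05, 0.915 and 10.7 FPKM against 0.660, 4.08 and 2.46 FPKM (adjusted p = 0.979).

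Downstream of the receptors, G-protein subunits, arrestins, receptor kinases, Rac and Rap proteins and integrins were all expressed, and none of the 26 passed the threshold (limma, 1 at an unadjusted p under 0.05). Their median log2 difference was 0.35. The smallest adjusted p was that of the Grk6/Prr7 locus, whose Grk6 encodes a kinase that switches off CXCR4, at 60.8, 59.2 and 57.7 FPKM under the deficient label and 27.5, 23.2 and 35.1 FPKM in WT (limma adjusted p = 0.362). Itgal, the alpha chain of LFA-1, was at 32.2, 19.1 and 21.5 FPKM against 43.6, 33.7 and 52.5 FPKM (adjusted p = 0.564). Dock2, the Rac activator used by lymphocyte chemokine receptors, was at 103, 188 and 127 FPKM against 49.5, 78.5 and 89.2 FPKM (adjusted p = 0.586).

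The genes whose pattern over the 6 libraries was most like that of each receptor were taken from 7066 genes with a mean of at least 5 FPKM, by Pearson correlation of log2(FPKM + 1). The 6 libraries form 2 groups, so a high value mostly restates a difference between them, and none is a test. Closest to Cxcr5 were Ifi30 (0.993), Apobec1 (0.993) and Fcmr (0.992). Closest to Ccr6 were Cd79a (0.995), H2-Aa (0.991) and Pydc4 (0.988). Cd79a, a signalling chain of the B-cell receptor, was at 287, 210 and 161 FPKM under the deficient label and at 8.95, 6.88 and 38.6 FPKM in WT, the same order of libraries as Ccr6 in both groups.

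Closest to Ccr9 were Smox (0.992), Dcaf5 (0.979) and Sox13 (0.976). Sox13, a factor of the gamma-delta T lineage, was at 12.3, 7.34 and 1.66 FPKM under the deficient label and at 91.1, 30.8 and 39.0 FPKM in WT. Closest to Cxcr4 were Hgs (0.989), Tspan32 (0.989) and Nuak2 (0.984), to Ccr7 Edem3 (0.985), Tor1aip1 (0.980) and Atp8a1 (0.979), and to Selplg Axin1 (0.983), Tcn2 (0.975) and R3hcc1 (0.973). Among the 3 closest to Gpr183 were Nlrc5 (0.979) and Pik3r4 (0.976).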

How the data were processed

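The authors deposited a table of FPKM for each of the 6 libraries, with an interval around each value, per the file headers, laid out as Cufflinks writes gene tables. The build was mm9, and featureCounts 2.0.1, TopHat2 2.1.1 and Trimmomatic 0.38 are named without role or order, per the submitters' processing notes. Read counts per library are unknown; depth was approximated from the interval widths, read as 2 SD to each side of a fragment count. Such intervals cover estimation error, not the spread between libraries.

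Loci were joined on gene symbol with Python 3.11.15 and pandas 2.3.3, and symbols sharing a row were joined into 1 of 23401 units. Genes at 1 FPKM or more in at least 3 libraries (11063) entered a limma fit (version 3.58.1, R 4.3.3) on log2(FPKM + 1), with group as the only term, a trend and a robust step, and Benjamini-Hochberg adjustment at 0.05. The code was tested on simulated data. This scale understates changes of low genes. Start positions were raised by 1.

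The members and the 11 other gene lists were chosen with earlier results of these data known. Named genes are the members, list genes past the threshold or with the smallest adjusted p, ligands and partners of the members, and the 3 genes most like each member. Some named genes were chosen outside this rule, among them Tcf7, Cd44, Xcr1, Clec9a, Ccr8, Ccr4, Cxcr6, Blk and Cd37. A few genes that this rule names are not reported here. Alternatives covered pseudocounts of 0.1 and 5, filters, scalings, the trend, a replicate block and leaving out libraries.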

Additional observations from a re-analysis of the deposited data

How the results depend on the processing

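Of 77 recomputed member differences, leaving out 3 alternatives that return the same value by construction, 74 moved by less than 1 SD of the libraries. The other 3 were Cxcr4 (1.91) and Cxcr5 (2.86) with a pseudocount of 5 and Cxcr5 (5.45) with a pseudocount of 0.1. With 3 libraries per group, leaving out 1 library cannot move a difference by 1 SD of the libraries. Many of the 74 were therefore fixed in advance, and nothing is read from that count. Selplg alone changed sign, to 0.22 without WT replicate 3. The count of genes past the threshold, 83, was 53 with a pseudocount of 0.1, 55 without the trend and robust step, 0 of 18943 without a filter (limma, 1181 at an unadjusted p under 0.05), 0 to 69 when 1 library was left out, and 0 without both replicates 1, an alternative chosen after seeing the data (581 at an unadjusted p under 0.05). It was 0 without WT replicate 1, or without replicate 1 or 2 of the libraries labelled deficient (limma, 800, 899 and 911 at an unadjusted p under 0.05), 2 without WT replicate 2, and 36 without replicate 3 of the libraries labelled deficient. With the replicate number as a block 2 genes passed. Same-numbered libraries shared deviations with correlations of 0.084, 0.182 and 0.174, all above the -0.196 to 0.0349 of differently numbered libraries. The labels do not say whether the numbers mark pairs or batches, and this was not tested. The main fit leaves the numbers out. Member differences are the same in the fit with the block by construction.

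The thymus-homing mean difference of 0.46 was 1.23 without Ccr9, 0.06 without Ccr7 and -0.09 without Cxcr4, and 0.28 to 0.66 with 1 library left out. The follicle-homing mean of 2.69 was 2.02 with a pseudocount of 5, 1.97 without Cxcr5, 3.38 without Gpr183, and 2.36 to 3.04 with 1 library left out. Their difference of 2.23 was 2.71 and 1.66 with pseudocounts of 0.1 and 5, and 2.07 to 2.43 with 1 library left out. Upper-quartile scaling lowered the median log2 difference of all genes to -0.09, against 0.04 as deposited.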
